A study of Populus tremula x Populus tremuloides with 22 samples.

Results

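The genes described here form a graded fall: their transcripts were lower in stems of hybrid aspen overexpressing Arabidopsis LBD4 than in wild type (WT), and lower again in stems overexpressing Arabidopsis LBD11. They were chosen by measured values. With CPM as a gene's count divided by the library total and scaled up in the usual way, and levels as log2(CPM + 0.5), a gene belonged when its WT mean was at least 2 CPM, each LBD4-OE line mean lay at least 0.3 below the WT mean, and each LBD11-OE line mean lay below every LBD4-OE line mean. Of 34699 genes in the files, 21115 met the WT minimum, 338 of these also met the LBD4-OE margin, and 98 met all 3 conditions. That is 0.464% of the genes at the WT minimum. The mirror rule for a graded rise was met by 99 genes.

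The study compared the stem transcriptome of WT trees with that of trees in which an Arabidopsis LBD gene was overexpressed, by the series title specifically in xylem. The trees were Populus tremula x Populus tremuloides, grown in a greenhouse, and the tissue was stem internodes at 3 weeks. There were 22 libraries: 5 of WT, 8 of LBD4-OE (line 11 with 3, line 14 with 2, line 17 with 3) and 9 of LBD11-OE (lines 1, 2 and 14 with 3 each). LBD11-OE-14 is named from the sample titles, while its genotype label has the number 3. The promoter is not given in the sources used here. Whole internodes hold xylem, cambium, phloem, cortex and epidermis, so fewer cells of a type and less RNA per cell cannot be told apart. The labels do not say that libraries of a line came from separate trees, so the spread behind each p-value may be technical.

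LBD proteins, named for the LATERAL ORGAN BOUNDARIES domain, are plant transcription factors that act at organ boundaries and in the growth of roots, leaves and vascular tissue. In Arabidopsis, LBD4 acts at the border between phloem and procambium and affects the number of vascular cells, and LBD11 is linked to the activity of the cambium, the dividing layer that gives wood to the inside and phloem to the outside. What the 98 aspen genes encode is not stated here, because no gene name accompanies the identifiers. For the same reason tissue markers and pathway lists could not be checked, and no role is given to any gene. Identifiers are printed without the suffix v4.1 that the files add to each, and positions are those of the files, whose genome build is not given in the sources used here.

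Libraries held 23437445 to 41969957 counts. In WT replicate 3 the median of the members stood at 0.16 above the WT mean on the log2 scale, and in the other 4 WT libraries between -0.07 and -0.01. Within its line, LBD4-OE-11 replicate 1 stood highest for the members, 0.19 above the line mean. LBD11-OE-2 replicate 3 also stood 0.19 above the mean of its line. The libraries also formed a larger set of 15 and a smaller set of 7 that cut across the constructs. The smaller set holds WT replicate 3, all of LBD4-OE-11 and all of LBD11-OE-2. They are set apart by 14 genes that were higher in every library of the larger set than in any of the smaller, 9 of them by a gap over 1 on the log2 scale, and 0 of the 98 members are among the 14. The sets are not in the labels, and what separates them was not tested. Values that omit WT replicate 3 together with LBD4-OE-11 replicate 1, and values within the sets, are given beside the results they touch.

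The median member was 0.49 lower than WT in LBD4-OE and 0.99 lower in LBD11-OE on the log2(CPM + 0.5) scale. For the 21017 other genes at the WT minimum the medians were -0.02 and -0.05. In linear CPM the median member kept 69.1% of its WT mean in LBD4-OE (range 33.7% to 79.4%) and 45.8% in LBD11-OE (4.96% to 70.6%). The level was under 50% of WT for 5 members in LBD4-OE and for 52 members in LBD11-OE, and under 25% for 20 members in LBD11-OE. Together the members took 0.342% ± 0.028 of all counts in WT (SD, n = 5), 0.240% ± 0.023 in LBD4-OE (SD, n = 8) and 0.163% ± 0.017 in LBD11-OE (SD, n = 9). These differences chose the members and are a description. With WT replicate 3 left out along with LBD4-OE-11 replicate 1, the medians of the 98 were -0.49 and -1.02. Left out singly, these libraries moved the LBD4-OE median in opposite directions. It was -0.45 without WT replicate 3 and -0.53 without LBD4-OE-11 replicate 1.

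**Figure D1:**
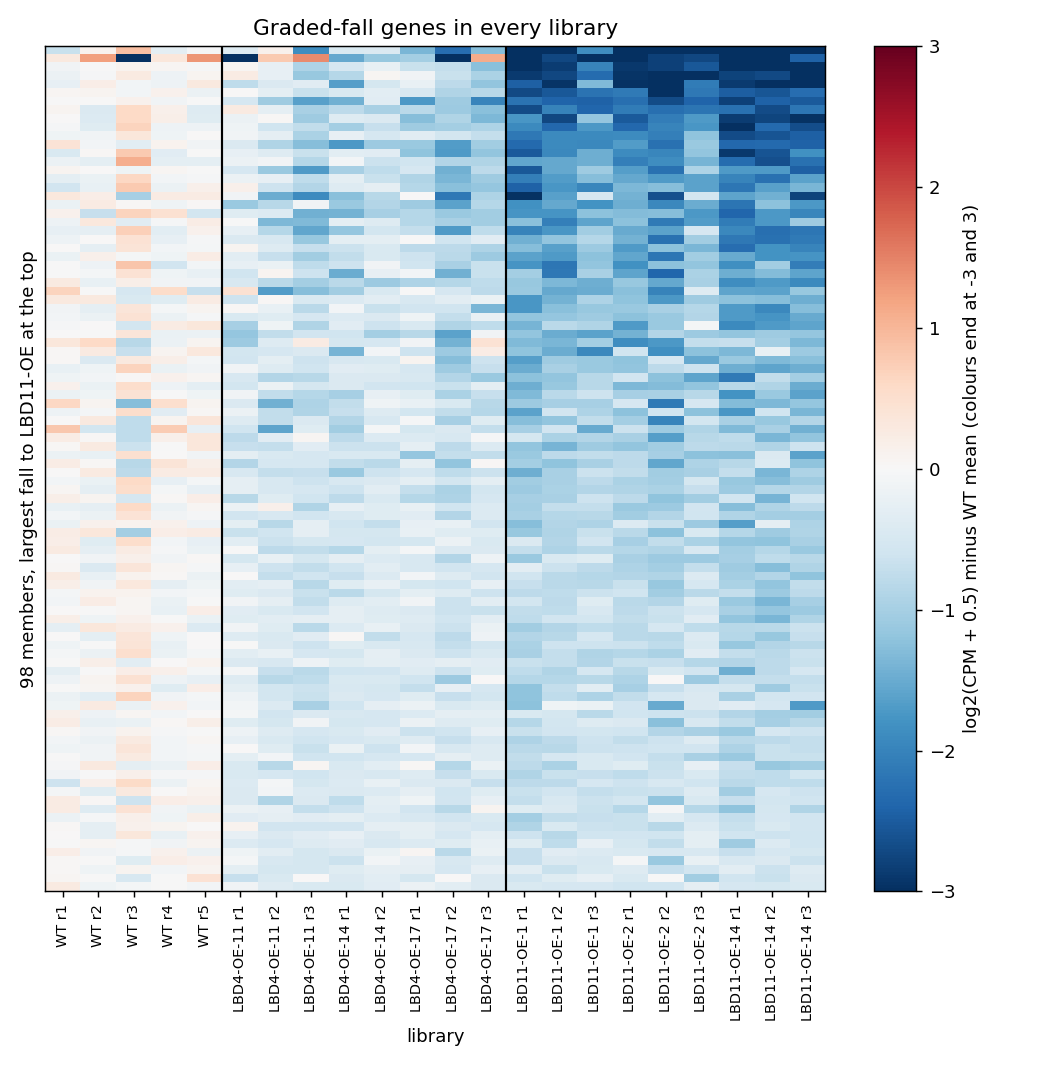
Level of each of the 98 members (rows, sorted by their fall to LBD11-OE) in each of the 22 libraries (columns), as log2(CPM + 0.5) minus the WT mean of the gene; blue is lower and red higher than WT, and colours end at -3 and 3. The 8 LBD4-OE libraries are paler blue than the 9 LBD11-OE libraries, and WT replicate 3 has more red than the other WT libraries.

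Library by library, the member medians ran from -0.07 to 0.16 in WT, from -0.71 to -0.31 in LBD4-OE and from -1.13 to -0.84 in LBD11-OE. The 3 ranges did not overlap. Single genes were much less clear-cut. Every WT library was above every LBD4-OE library for 21 members, where 1.13% of the genes at the WT minimum show this. Every WT library was above every LBD11-OE library for 74 members (8.11% of the genes at the WT minimum), and every LBD4-OE library was above every LBD11-OE library for 15 (1.81%). Both steps were free of overlap for 1 member, Potri.010G051800, against 7 genes or 0.0332% of those at the WT minimum. All of these counts rest on contrasts the rule used, so nothing is read from them beyond the spread they show.

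**Figure D2:**
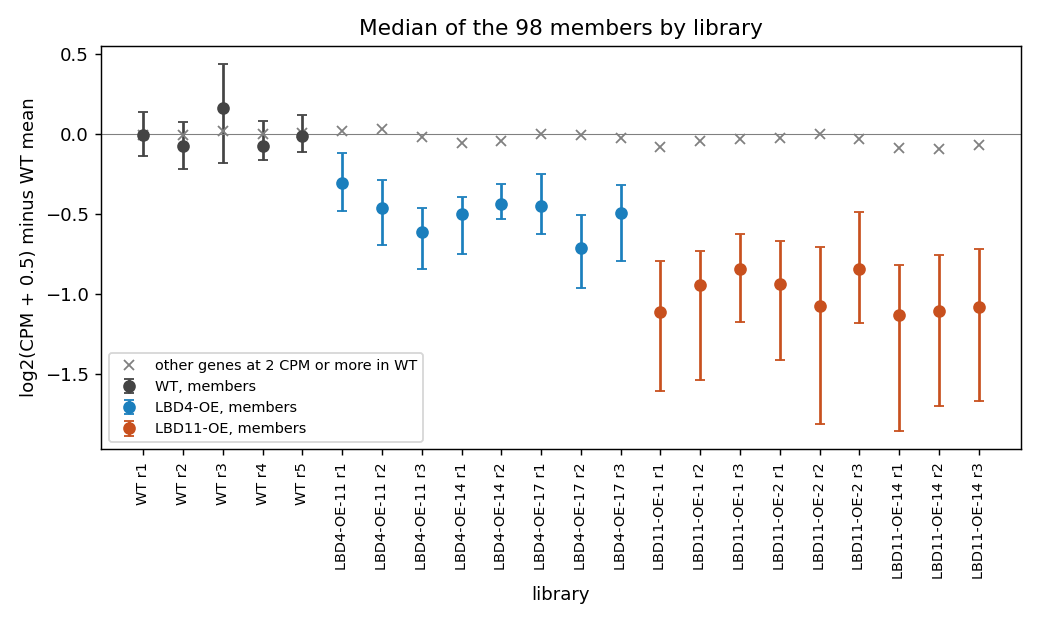
Median of the 98 members in each library as log2(CPM + 0.5) minus the WT mean, with bars from the lower to the upper quartile of the members, and crosses for the median of the 21017 other genes at 2 CPM or more in WT. Members lie between -0.71 and -0.31 in LBD4-OE and between -1.13 and -0.84 in LBD11-OE, while the crosses stay between -0.09 and 0.03.

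The gradation was uneven across members. In LBD4-OE the median member had gone 54.0% of its way to the LBD11-OE level on the log2 scale, with quartiles of 42.1% and 59.1% and extremes of 15.9% and 74.4%. For 53 members this share lay between 40% and 60%, for 22 it was under 40% and for 23 over 60%. The rule bounds the share on both sides. Each LBD4-OE line had to fall by at least 0.3, so a member with a small fall to LBD11-OE could not have a low share. LBD11-OE also had to lie lower still. The shares are therefore a description of genes so chosen. Of the 8 members with the largest fall to LBD11-OE at 5 CPM or more in WT, all had shares under 50%, between 15.9% for Potri.007G088700 and 48.2% for Potri.010G051800. For these 8 genes the larger step was the one between LBD4-OE and LBD11-OE. They were picked by the fall to LBD11-OE, which divides the share, so the choice itself favours low shares.

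**Figure D3:**
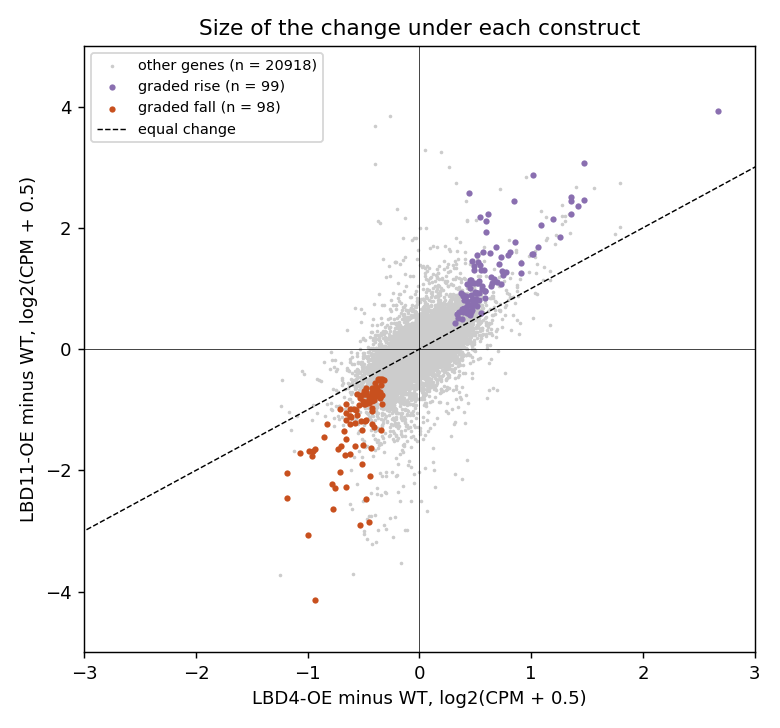
Change of each gene at 2 CPM or more in WT under LBD4-OE (horizontal) and under LBD11-OE (vertical), both as differences from the WT mean of log2(CPM + 0.5); orange marks the 98 graded-fall genes, purple the 99 graded-rise genes and the dashed line equal change. Graded-fall genes reach -1.18 on the horizontal axis and -4.13 on the vertical axis; both axes share the WT libraries.

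Potri.010G051800 (chromosome 10, 8344852 to 8347129, minus strand) showed the order in every library. Its WT libraries read 5.59, 5.55, 6.24, 5.25 and 5.61 CPM in replicates 1 to 5. LBD4-OE libraries ran from 1.05 to 4.33 CPM around a median of 2.09, and LBD11-OE libraries from 0.386 to 0.830 CPM around 0.647. The 3 groups did not overlap, and the WT libraries were tight while the LBD4-OE libraries spread widely. It had the largest fall to LBD4-OE of the members at 5 CPM or more in WT, with a fitted log2 fold change of -1.27 ± 0.24 (SE), and of -3.11 ± 0.25 (SE) in LBD11-OE. It remained a member in each of the 22 sets that leave out 1 library.

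Potri.003G212900 (chromosome 3, 20997687 to 21000818, plus strand) had the largest fall of all, to 4.96% of the WT mean in LBD11-OE. It read 14.1, 24.1, 42.3, 18.2 and 22.001 CPM in the WT libraries. The LBD4-OE libraries ran from 4.23 over a median of 12.6 to 24.8 CPM, and the LBD11-OE libraries from 0.0925 over 0.594 to 5.79 CPM. WT and LBD4-OE overlapped, whereas WT lay clear of LBD11-OE. The highest LBD11-OE value, in line 1 replicate 3, was above 1 LBD4-OE library. The fitted log2 fold changes were -0.91 ± 0.51 in LBD4-OE and -4.30 ± 0.57 in LBD11-OE (SE). The gene left the rule without WT replicate 3 or without LBD4-OE-11 replicate 3.

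Potri.015G083200 (chromosome 15, 10838579 to 10842283, plus strand) was steady in WT, at 59.6, 63.7, 69.1, 67.0 and 62.2 CPM. LBD4-OE libraries had 26.5, 42.7 and 67.2 CPM as lowest, median and highest value, and LBD11-OE libraries 3.86, 8.1999 and 15.9 CPM. All LBD11-OE libraries were below all others, while LBD4-OE-11 replicate 1 reached the WT range. Potri.007G088700 (chromosome 7, 11385739 to 11390218, minus strand) had the same shape, with 44.7, 49.3, 61.0, 45.3 and 53.2 CPM in WT, 22.7 to 60.3 CPM around a median of 36.9 in LBD4-OE, and 5.08 to 9.74 CPM around 6.48 in LBD11-OE. Its fitted log2 fold change was -0.38 ± 0.19 in LBD4-OE and -2.88 ± 0.19 in LBD11-OE (SE). For both genes the step from WT to LBD4-OE was of the order of the spread among LBD4-OE libraries, and the step to LBD11-OE was well beyond it.

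Potri.009G127900 (chromosome 9, 10524619 to 10526231, minus strand) repeated this at a lower level. It read 7.64, 7.82, 6.97, 8.03 and 6.42 CPM in WT, 3.67 to 7.47 CPM with a median of 5.18 in LBD4-OE, and 0.348 to 1.31 CPM with a median of 0.920 in LBD11-OE. LBD11-OE lay clear of both other groups. Potri.014G092932 (chromosome 14, 6014271 to 6015559, minus strand) read 11.7, 8.05, 16.9, 12.3 and 8.26 CPM in WT, 4.32 to 13.3 CPM with a median of 5.75 in LBD4-OE and 1.29 to 2.39 CPM with a median of 1.96 in LBD11-OE. Its highest WT and its highest LBD4-OE value came from WT replicate 3 and from LBD4-OE-11 replicate 1, and it met the rule without both but not without WT replicate 3 alone. Potri.001G277600 (chromosome 1, 29119968 to 29121285, minus strand) read 7.93, 5.72, 12.1, 8.84 and 5.93 CPM in WT, 2.74 to 8.06 CPM with a median of 4.82 in LBD4-OE and 0.567 to 3.21 CPM with a median of 0.943 in LBD11-OE. Only WT and LBD11-OE were free of overlap there, and it was no member without WT replicate 3.

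Potri.002G078600 (chromosome 2, 5493699 to 5495556, plus strand) is graded on the log2 scale but not library by library. Its WT libraries read 99.7, 192, 8.69, 104 and 206 CPM, with replicate 3 far below the rest. The LBD4-OE libraries read 5.16, 142 and 221 CPM in line 11, 28.0 and 37.2 CPM in line 14 and 40.2, 7.23 and 178 CPM in line 17. The LBD11-OE libraries were uniformly low, from 5.32 to 14.8 CPM. High and low libraries thus occurred side by side in WT and within LBD4-OE lines, and all groups overlapped. Its mean was 122 ± 80.0 CPM in WT (SD, n = 5), 82.4 ± 84.7 in LBD4-OE (SD, n = 8) and 9.73 ± 3.09 in LBD11-OE (SD, n = 9). Without WT replicate 3 its log2 difference from WT was -1.79 in LBD4-OE and -3.86 in LBD11-OE, against -0.99 and -3.07 with it.

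**Figure D4:**
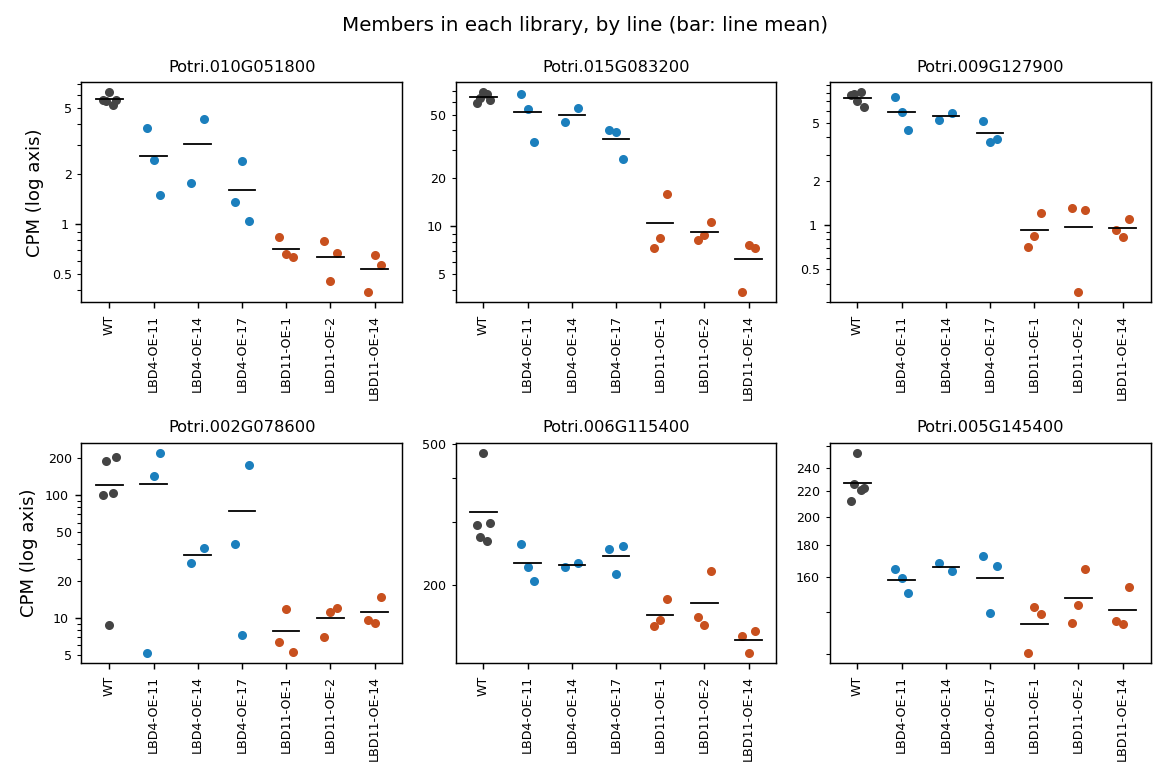
CPM (log axis) of 6 members in each library, by line, with a bar at the mean of the line; grey is WT, blue LBD4-OE and orange LBD11-OE. Potri.010G051800 has 3 groups without overlap, and Potri.015G083200 and Potri.009G127900 drop mainly at LBD11-OE. Potri.002G078600 has a WT library at 8.69 CPM beside others at 99.7 to 206 CPM. Potri.006G115400 and Potri.005G145400 fall less than the others shown, at high counts.

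Among the 6 members with the highest WT means, Potri.002G078600 has been described. The other 5 had fitted log2 fold changes from -0.94 to -0.64 in LBD11-OE. Potri.006G115400 (chromosome 6, 9007226 to 9010063, minus strand) had the highest WT mean. It read 294, 272, 470, 265 and 298 CPM in WT, 204 to 261 CPM around a median of 227 in LBD4-OE, and 128 to 218 CPM around 154 in LBD11-OE. WT lay above both constructs in every library. Without WT replicate 3 its fall to LBD4-OE was 0.28 and it no longer met the rule. Potri.005G145400 (chromosome 5, 11886699 to 11891268, minus strand) read 212, 226, 254, 221 and 222 CPM in WT, 140 to 173 CPM around 164 in LBD4-OE and 120 to 165 CPM around 139 in LBD11-OE. It had gone 71.8% of its way in LBD4-OE, and LBD4-OE and LBD11-OE overlapped. Its fitted log2 fold changes were -0.48 ± 0.07 and -0.64 ± 0.07 (SE), and it stayed a member whichever library was left out.

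Potri.007G014200 (chromosome 7, 1058200 to 1059665, plus strand) and Potri.005G116600 (chromosome 5, 8489960 to 8491046, plus strand) followed each other closely. The former read 356, 255, 322, 303 and 261 CPM in WT and had medians of 211 CPM in LBD4-OE and 162 CPM in LBD11-OE. The latter read 287, 196, 279, 231 and 207 CPM in WT and had medians of 176 and 130 CPM. Their log2 differences from WT were -0.44 and -0.46 in LBD4-OE and -0.84 and -0.85 in LBD11-OE, and both were higher in WT replicates 1 and 3 than in the others. Whether reads could be shared between them was not tested. Potri.017G082701 (chromosome 17, 9357287 to 9357578, plus strand), the member with the shortest span, read 158, 127, 148, 133 and 141 CPM in WT, with medians of 105 CPM in LBD4-OE and 89.9 CPM in LBD11-OE.

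The largest falls to LBD4-OE at 5 CPM or more also included 3 genes not yet described. Potri.008G149201 (chromosome 8, 10170689 to 10174842, plus strand) read 93.1, 86.2, 37.5, 89.7 and 88.8 CPM in WT, 16.5 to 75.4 CPM around a median of 35.5 in LBD4-OE and 9.19 to 52.5 CPM around 24.7 in LBD11-OE. Potri.019G100001 (chromosome 19, 13665245 to 13665858, plus strand) read 70.3, 66.2, 60.3, 68.7 and 65.2 CPM in WT, 19.9 to 46.7 CPM around 35.4 in LBD4-OE and 10.9 to 34.5 CPM around 20.01 in LBD11-OE. WT was clear of LBD4-OE for the second gene, while WT replicate 3 fell among the LBD4-OE libraries for the first. Potri.019G023004 (chromosome 19, 547223 to 550378, minus strand) was lower throughout, at 4.65, 4.60, 9.50, 4.41 and 6.14 CPM in WT, with medians of 3.00 CPM in LBD4-OE and 1.32 CPM in LBD11-OE.

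Lines of a construct were compared with edgeR's quasi-likelihood F test, fitted on 26271 genes with Benjamini-Hochberg adjustment, a contrast that did not choose the members although the rule bounds each line mean. Among the 3 LBD11-OE lines 0 of the 98 members differed at an adjusted p under 0.05, where 1.36% of all genes did. At an unadjusted p under 0.05 the count was 21 of 98 (11.1% of all genes), limma voom called 0 (1.38% of all genes) and DESeq2 6 of 98 (2.59% of all genes), and the lowest adjusted p by edgeR was 0.0698. Without WT replicate 3 edgeR called 3 of 98 members (2.13% of all genes), and without LBD11-OE-2 replicate 2 also 3 (1.29% of all genes). Without LBD4-OE-11 replicate 3, LBD11-OE-1 replicate 2 or LBD11-OE-14 replicate 3 it called 1 (0.838% to 1.37% of all genes). Among the 3 LBD4-OE lines 0 of 98 differed (0.194% of all genes), with 5 at an unadjusted p under 0.05 (9.95% of all genes). The count by limma voom or DESeq2 was also 0. At a share as low as 0.194% over all genes, 0 of 98 is no result about the members.

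By line, the median member was at -0.97 in LBD11-OE-1, -0.94 in LBD11-OE-2 and -1.08 in LBD11-OE-14, relative to WT. LBD11-OE-14 was the lowest of the 3 for 62 members (63.3%), and for 46.1% of the other genes. LBD11-OE-2 was the highest for 53 members (54.1%), and for 44.6% of the other genes. In LBD4-OE the medians were -0.44 in line 11, -0.46 in line 14 and -0.52 in line 17. Line 17 was the lowest for 47 members (48.0%), and for 29.2% of the other genes.

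The order was next looked at in libraries that had no part in choosing the genes, which the 2 library sets allow. Applied to the larger set alone, the rule was met by 248 genes, 71 of them among the 98. In the smaller set LBD11-OE was below LBD4-OE for 220 of the 248 genes (88.7%), where 56.2% of the 20819 genes that met the WT minimum but not the rule showed this. LBD4-OE was below WT for 143 (57.7%, against 49.7%), and both steps together held for 118 (47.6%, against 29.4%). Median differences in the smaller set were -0.26 for LBD4-OE and -0.46 for LBD11-OE relative to WT, and -0.44 for LBD11-OE relative to LBD4-OE. The WT level there rests on replicate 3 alone, and the constructs on LBD4-OE-11 and LBD11-OE-2 alone. The sets were drawn after the data were seen, so these shares are a description. No test was made, since genes are not replicates.

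In the other direction, the rule applied to the smaller set was met by 2779 genes, again with 71 of the 98. There the rule rested on that single WT library and on LBD4-OE-11 and LBD11-OE-2 alone. Which of these raised the number was not tested. In the larger set LBD4-OE was below WT for 2337 of them (84.1%, against 54.3% of the 18243 other genes). LBD11-OE was below LBD4-OE for 2393 (86.1%, against 54.4%), and both steps held for 1995 (71.8%, against 30.1%). The median differences were smaller than in the genes chosen on all libraries, at -0.14 for LBD4-OE and -0.32 for LBD11-OE relative to WT.

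**Figure D5:**
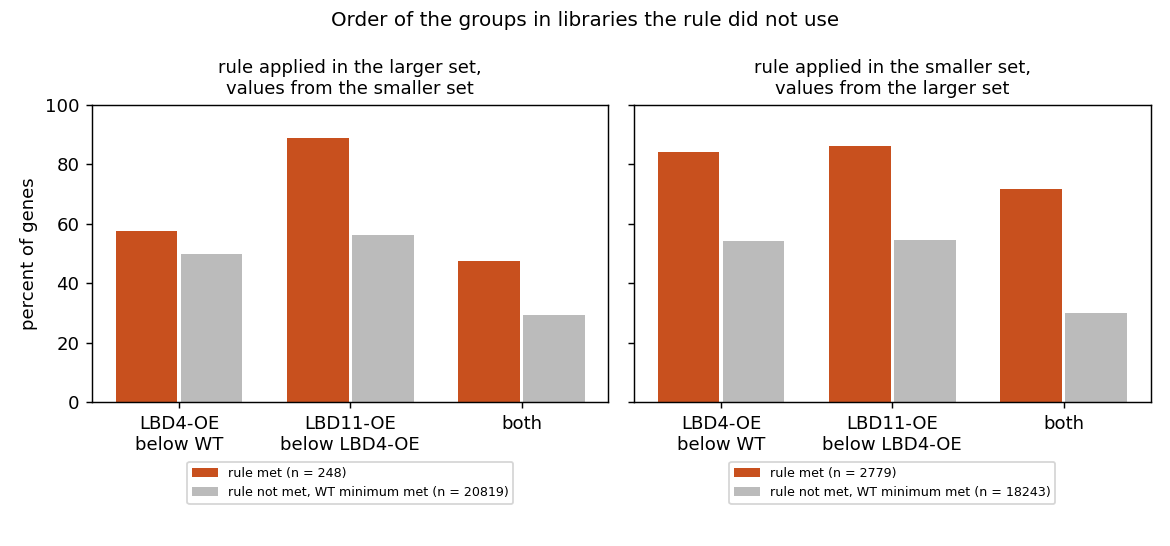
Percent of genes whose groups stood in the stated order in libraries the rule did not use; orange bars are genes that met the rule in the other library set, grey bars the genes at the WT minimum that did not. LBD11-OE below LBD4-OE reaches 88.7% and 86.1% in orange, and LBD4-OE below WT 57.7% in the smaller set, where WT is 1 library, and 84.1% in the larger set. In the smaller set each construct is 1 line.

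Within lines the members shared some of their variation. After the mean of each line and of WT was removed, the mean correlation over the 4753 pairs of members was 0.159 across 22 libraries, against 0.0095 for the other genes and 0.208 for the graded-rise genes. The first principal component of this variation held 29.9% in the members and 26.4% in the other genes, while the members were chosen for a single direction. These correlations share libraries and are a description. In 52 pairs the correlation exceeded 0.8, and in 161 it was under -0.5, so the members did not move as a single block. The closest pair was Potri.005G116600 with Potri.007G014200, at 0.945, followed by Potri.008G149201 with Potri.019G100001, at 0.944. The within-group SD of the median member was 0.30 on the log2 scale, and of the median other gene 0.16.

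The members lay on all 19 numbered chromosomes and on none of the unplaced scaffolds that hold 83 of the other genes at the WT minimum. The highest counts were 9 each on chromosomes 5 and 10, and relative to the genes at the WT minimum chromosome 19 was highest, with 7 of 544 (1.29%). Among the members 2 pairs were direct neighbours, as among the graded-rise genes. How many pairs as many other genes would give was not tested. Potri.009G114300 (chromosome 9, 9689642 to 9691024, minus strand) and Potri.009G114400 (9699192 to 9699943, plus strand) lay 8168 bases apart. The first read 78.4, 64.3, 102, 72.7 and 73.7 CPM in WT, with medians of 48.3 CPM in LBD4-OE and 24.5 CPM in LBD11-OE, and the second 58.4, 46.6, 95.3, 54.0 and 54.0 CPM in WT, with medians of 33.4 and 11.4 CPM. All LBD11-OE libraries were below all others for both, both peaked in WT replicate 3, and their within-line correlation was 0.917.

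The second pair lay on chromosome 19, 15609 bases apart. Potri.019G063300 (10329725 to 10333083, minus strand) read 23.0, 21.3, 34.0, 20.6 and 22.9 CPM in WT, with medians of 17.5 CPM in LBD4-OE and 13.6 CPM in LBD11-OE. Potri.019G063400 (10348692 to 10350868, plus strand) read 2.57, 3.72, 2.16, 2.80 and 3.49 CPM in WT, with medians of 1.31 and 0.563 CPM. These neighbours did not vary together within lines, with a correlation of -0.15.

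Members spanned less of the genome than other genes. The median span from start to end, introns included, was 2152 bases for the members, 3850 for the other genes and 2769 for the graded-rise genes. Members were also counted less, with a median WT mean of 11.5 CPM against 20.9 CPM. At 2 to 10 CPM in WT the median span was 2159 bases for 45 members and 3066 for 6021 other genes, at 10 to 100 CPM it was 2292.5 bases for 44 members and 4227 for 12891 others, and from 100 CPM up it was 1857 bases for 9 members and 4047 for 2105 others. The plus strand carried 45.9% of the members and 49.8% of the other genes.

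Membership was sensitive at its edges. The members nearest to the limits had WT means of 2.004 and 2.05 CPM, weakest LBD4-OE margins of 0.3023 and 0.3025, and gaps of 0.0020 and 0.0061 between the highest LBD11-OE and the lowest LBD4-OE line. Genes just outside had WT means of 1.90 and 1.77 CPM, margins of 0.2976 and 0.2975, and gaps of -0.0039 and -0.0055. Leaving out single libraries gave sets of 74 to 137 genes. Without WT replicate 3 the rule gave 101 genes, and 61 of the 98 members were among them. Without LBD4-OE-11 replicate 3 it gave 78 genes, also with 61 of the 98. Of the 98 members, 13 were in each of the 22 sets. The 13 had median falls of 0.78 and 1.59 to LBD4-OE and LBD11-OE, against 0.48 and 0.91 for the other 85. Besides Potri.010G051800 and Potri.005G145400 they include Potri.009G114400 and Potri.019G100001. When WT replicate 3 was omitted with LBD4-OE-11 replicate 1, 65 genes met the rule and 54 of them were among the 98.

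Against WT the members were part of a much wider set of differences. In the edgeR fit on 25626 genes 16.3% of all genes were lower in LBD11-OE and 1.57% lower in LBD4-OE at an adjusted p under 0.05, out of 32.3% and 4.28% that differed in either direction. The members counted among these were 98 of 98 and 38 of 98, on the contrasts that chose them. The fit counted the libraries of all lines of a construct as its replicates, without a term for line. The LBD4-OE count was 20 to 48 when single libraries were left out, at 24 without WT replicate 1, 22 without WT replicate 3, 20 without WT replicate 5, 25 without LBD4-OE-11 replicate 3 and 23 without LBD4-OE-17 replicate 2. It was 27 within the larger library set and 61 by DESeq2. These member counts are of genes called lower. The share of all genes called lower in the same settings is not given here. Over all genes the number called in LBD4-OE in either direction moved too, against 1097 with all libraries. It ran from 439 without WT replicate 5 to 1549 without LBD4-OE-11 replicate 1. The changes in the member count are therefore not read as particular to the members. For the members not called, the step from WT to LBD4-OE did not pass the test over all genes, although each of the 3 line means lay at least 0.3 below WT.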

How the data were processed

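Poly(A) RNA of stem internodes was sequenced from both ends on an Illumina HiSeq, per the labels' protocols. The authors deposited raw read counts per gene from HTSeq, whole numbers, 1 file per library, per the labels. The submitters' processing notes also name MultiQC, Trimmomatic, HISAT2 and Cufflinks; versions, build and strand setting are not given in the sources used here. Reads of a hybrid were counted on identifiers of 1 gene set, so alleles and near-identical or overlapping genes are uncertain. Depth was 23437445 to 41969957 counts per library. Transgene levels were not analysed here.

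CPM used library totals. edgeR 4.0.16 in R 4.3.3 (TMM, minimum count 10, minimum total count 15, robust quasi-likelihood fits, 3 groups or 7 groups over all 22 libraries) gave fold changes, SE and adjusted p. Fold changes, SE and calls against WT are from the fit of 3 groups. There the libraries of all lines of a construct counted as its replicates, without a term for line. SE is the absolute log2 fold change divided by the square root of the F statistic. DESeq2 1.42.0 and limma 3.58.1 were alternatives. The tests were first tested on simulated counts with known changes. Members and lists were chosen with earlier results of these data known. Genes named are the 8 largest falls to LBD11-OE and the 6 to LBD4-OE at a WT mean of at least 5 CPM, the 6 highest WT means and the neighbour pairs; genes at the limits of the rule are given by value only. The planned product-name lists and promoter motifs were not used, as no table gave names or sequences.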

Additional observations from a re-analysis of the deposited data

Results flagged for a closer look

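A library was marked when its gap to the nearest of its group, divided by the range of the group on the log2 scale, passed Dixon's critical value; chance marks about 1 in 20 groups, and 63 groups were looked at (20 genes and the median of the members, in WT, LBD4-OE and LBD11-OE). The rule used these values, and a gene raised in 1 WT library has a higher WT mean and meets the rule more easily. The rate of 1 in 20 therefore does not hold strictly for the members. Of the 6 marks, 5 concern WT replicate 3. The median of the 98 members was 0.16 above the WT mean there, with a ratio of 0.720 against a critical value of 0.710. Potri.006G115400 stood at 470 CPM against 265 to 298 CPM in the other WT libraries (ratio 0.792), and Potri.019G063300 at 34.0 CPM against 20.6 to 23.0 CPM (ratio 0.780). Potri.002G078600 was low there, at 8.69 CPM against 99.7 to 206 CPM (ratio 0.768), as was Potri.008G149201, at 37.5 CPM against 86.2 to 93.1 CPM (ratio 0.914). WT replicate 3 was the highest WT library for 52 members (53.1%) and for 37.2% of the other genes, and the lowest for 24 members. The remaining mark is LBD11-OE-1 replicate 3 for Potri.003G212900, at 5.79 CPM against 0.0925 to 1.26 CPM in the other 8 LBD11-OE libraries (ratio 0.539, critical value 0.493).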

How the results depend on the processing

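The rule itself decides how many genes count as members. With a margin of 0.2 in place of 0.3 it gave 283 genes and with 0.5 it gave 17. Without line LBD4-OE-11, LBD4-OE-14 or LBD4-OE-17 it gave 220, 179 and 148, as fewer lines have to meet it, and within the larger library set 248, of which 71 were members; omitting WT replicate 3 with LBD4-OE-11 replicate 1 it gave 65. These library choices were added after seeing the data. TMM or DESeq2 library sizes gave 74 and 73 genes, of which 69 and 68 were members. Single libraries left out gave 74 to 137 genes. Median falls of the 98 members then ran from -0.53 to -0.45 in LBD4-OE and from -1.02 to -0.93 in LBD11-OE. With single libraries left out, 0 to 3 members differed among LBD11-OE lines (0.453% to 2.13% of all genes). Among LBD4-OE lines the count was 0 (0.0858% to 0.572% of all genes). Within the smaller set the LBD4-OE median was -0.67, with 84 members below WT. DESeq2 called 6 of 98 members among the LBD11-OE lines (2.59% of all genes). Against WT, genes called in LBD4-OE in either direction numbered 1097. With DESeq2 they numbered 1944, within the larger set 599 and without the 2 libraries together 671. Single libraries left out gave 439 to 1549, lowest without WT replicate 5. Those called in LBD11-OE numbered 8281, and 7059 to 8519 with single libraries left out. Replicate numbers did not pair the libraries throughout: 7 of 22 libraries correlated best with a library of their own number, and 16 of 57 same-numbered pairs had a correlation above 0.1. All 3 same-numbered pairs passed 0.1 between LBD11-OE-1 and LBD11-OE-2 (0.102 to 0.150) and between LBD11-OE-1 and LBD11-OE-14 (0.163 to 0.294), but not between LBD11-OE-2 and LBD11-OE-14 (-0.053 to 0.109). With a replicate block the rule gave 166 genes (80 of the members), LBD11-OE lines differed for 1 member, and 298 genes, 9 of them members, were called in LBD4-OE. The 1 member is given without the share over all genes, and nothing is read from it. Depth limits members near 2 CPM in WT, whose LBD11-OE levels rest on few counts.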
